A study of Mus musculus with 16 samples.

Results

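The nucleus accumbens of mice exposed to arecoline was compared with that of mice exposed to caffeine, in 8 of the 16 RNA-seq libraries of the study, chosen by the compound named in the sample labels. All 16 libraries came from male C57BL/6 mice after 4 days of exposure to saline, arecoline, caffeine or nicotine, with 4 libraries in each of the 4 groups. The arecoline and caffeine groups share strain, sex, tissue and exposure time, and differ in the labels by compound alone. The sources used here give no dose, route or age. Since the labels do not tie a library to an animal of its own, each p-value reflects spread among libraries that may be technical. Of the genes in the deposited table, 14674 were abundant enough to be tested.

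Arecoline is the main alkaloid of the areca nut and activates muscarinic acetylcholine receptors, which are coupled to G proteins. Caffeine blocks adenosine receptors, above all those encoded by Adora1 and Adora2a. In the accumbens, a part of the ventral striatum that receives dopamine, medium spiny neurons make up most of the neurons. Those of the indirect pathway carry the Adora2a receptor beside the D2 dopamine receptor, those of the direct pathway carry the D1 receptor beside the M4 muscarinic receptor, and a sparse class of cholinergic interneurons supplies acetylcholine.

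Total estimated counts were 16.6 ± 2.12 M per library with arecoline and 19.5 ± 4.74 M with caffeine (SD, n = 4 each, exact two-sided permutation p = 0.314, where 0.0286 is the smallest that 4 against 4 libraries allow). The share of counts from mitochondrially encoded genes was 4.09 ± 0.47% with arecoline and 4.08 ± 0.34% with caffeine (SD, n = 4 each, exact permutation p = 0.971). Levels below are CPM, counts divided by the TMM-scaled library total in M, given for replicates 1 to 4 of each compound in that order. They compare a gene between libraries and are not adjusted for gene length. Log2 fold changes, arecoline over caffeine, are given ± their standard error (SE) from the edgeR fit.

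The arecoline libraries differed widely in cell type marker levels, which are given beside the results they move with. The summed level of 16 medium spiny neuron markers was 1251, 7379, 9454 and 1255 CPM in the arecoline libraries, against 1491, 1452, 1420.4 and 2493 CPM in the caffeine libraries and 2628 to 11077 CPM in the saline libraries. Arecoline replicates 2 and 3 were high, while arecoline replicates 1 and 4 were below every caffeine library. Every caffeine library was in turn below every saline library in this sum, so caffeine was not a striatum-rich baseline. Drd2 and Lhx8 were near or at 0 in arecoline replicates 1 and 4, although all libraries are labelled as accumbens. Other striatal genes such as Penk were lower there but well detected. Drd2, which encodes the D2 receptor, had 0.199, 46.8, 42.8 and 0.575 CPM in the arecoline libraries, against 0.871, 0.621, 1.28 and 6.63 CPM in the caffeine libraries and 4.83 to 58.5 CPM in the saline libraries. Caffeine replicates 1 to 3 were thus also below every saline library for Drd2. Lhx8, a transcription factor of cholinergic interneurons, was at 0 in arecoline replicates 1 and 4. In these bulk samples, fewer cells of a type and less RNA per cell cannot be told apart. On the first principal component, which held 25.9% of the variance over the 16 libraries, arecoline replicates 2 and 3 lay at 35.8 and 41.8, arecoline replicates 1 and 4 at -32.6 and -33.5, and the caffeine libraries between -33.7 and -14.5.

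**Figure D1:**
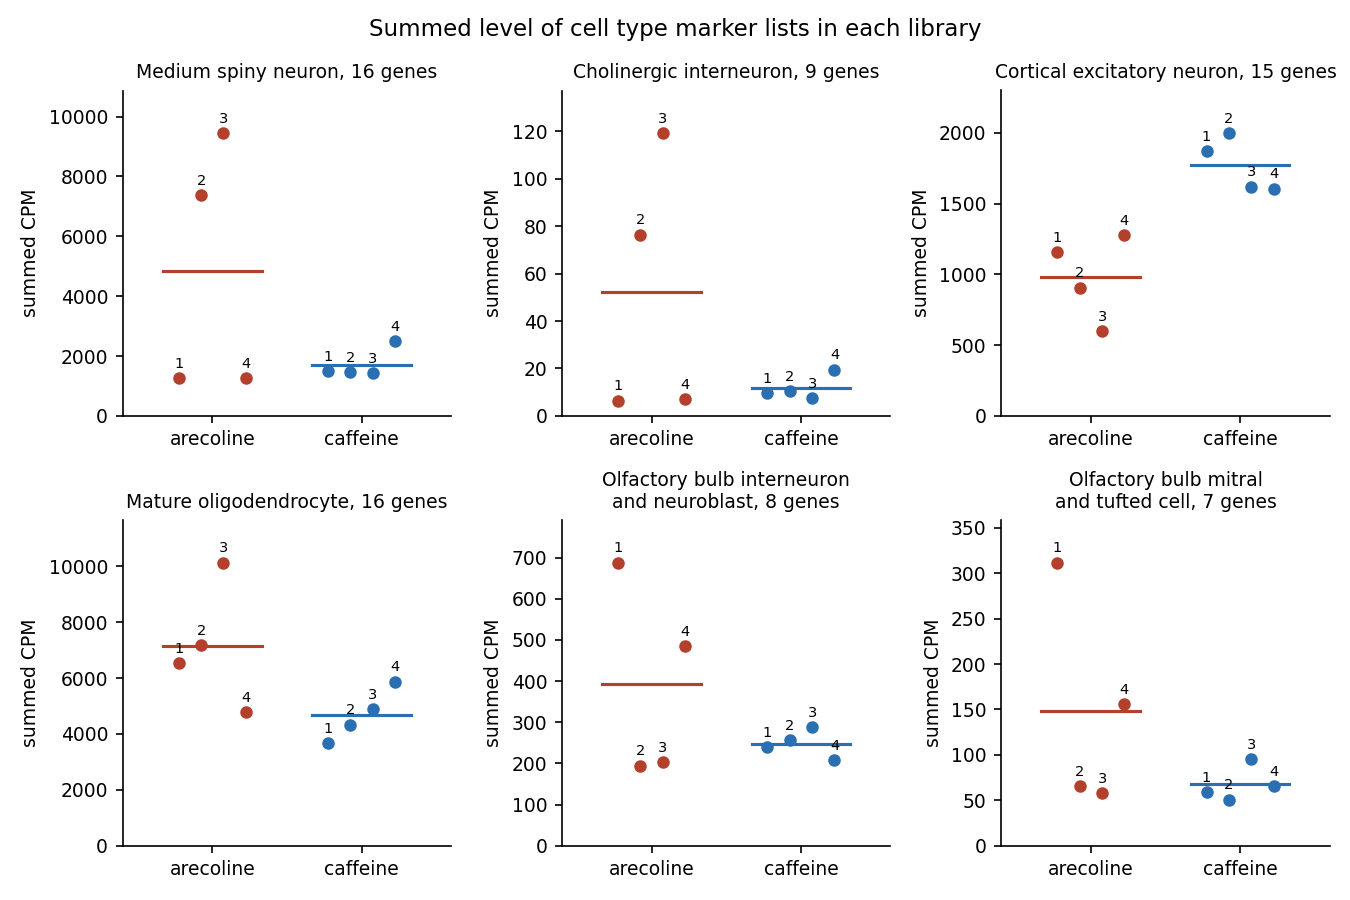
Summed CPM of marker genes of 6 cell types in each arecoline (red) and caffeine (blue) library; numbers are replicates, lines are group means, and every axis starts at 0. Arecoline replicates 2 and 3 stand high for striatal neurons, arecoline replicates 1 and 4 for olfactory bulb markers, and all 4 arecoline libraries lie below all 4 caffeine libraries for cortical excitatory neuron markers.

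With arecoline against caffeine, 0 genes rose and 0 fell at an adjusted p under 0.05 (edgeR's quasi-likelihood test over 16 libraries, Benjamini-Hochberg adjustment over 14674 genes). At an unadjusted p under 0.05, 1156 genes (7.88%) were higher and 1169 (7.97%) lower. The log2 fold change, arecoline over caffeine, had a median of 0.02 across genes, with 52.6% of genes above 0 and 47.4% below. The lowest adjusted p was 0.07, shared by 15 genes, and 21 genes had an adjusted p under 0.1, of which 17 were lower with arecoline. DESeq2 on the same counts called 148 genes higher (1.08% of the 13683 to which it gave an adjusted p) and 222 lower (1.62%). Of those 370 genes, 64 differed at least 2-fold. All arecoline libraries lay above all caffeine libraries for 586 genes (3.99%), and below them for 761 (5.19%).

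The edgeR counts moved when single libraries were left out. Without arecoline replicate 2, 19 genes (0.128%) passed as higher and 48 (0.323%) as lower. Without arecoline replicate 4 the counts were 2 and 1, without arecoline replicate 1 they were 1 and 0, and without arecoline replicate 3 or any caffeine library they stayed at 0. With arecoline replicates 2 and 3 both left out, 13 genes passed as higher and 2 as lower. When saline replicate 3 and nicotine replicate 2, which also stood apart, were left out with them, a choice made after seeing the data, 46 (0.309%) passed as higher and 40 (0.269%) as lower.

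**Figure D2:**
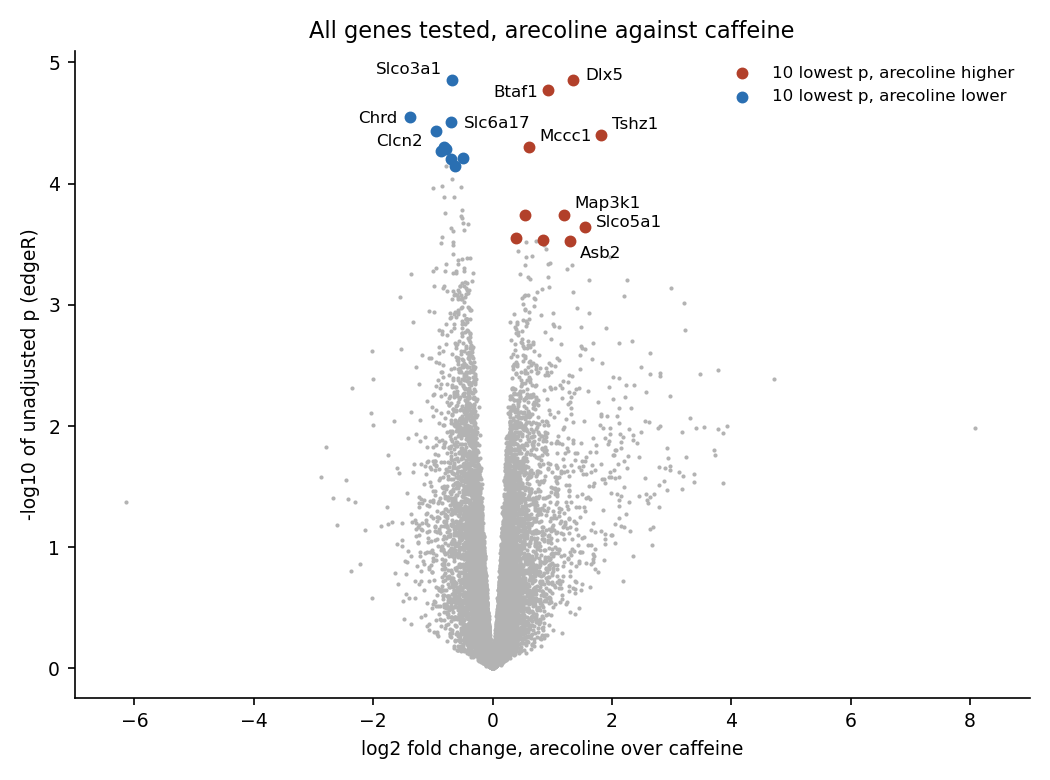
Log2 fold change, arecoline over caffeine (horizontal axis), against -log10 of the unadjusted edgeR p (vertical axis) for the 14674 genes tested, with the 10 genes of lowest p in each direction in colour. Wide fold changes lie mostly on the right, where 385 genes were at least 2-fold higher with arecoline at any p and 138 at least 2-fold lower, while no gene passed an adjusted p of 0.05.

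Genes of lowest p that were higher with arecoline included regulators of transcription and of forebrain development, none of them past the edgeR threshold. Dlx5, a homeobox gene of developing forebrain GABAergic neurons (mm10, chromosome 6, positions 6877805 to 6882085), had 32.1, 27.9, 35.9 and 20.7 CPM in the arecoline libraries, against 9.24, 11.8, 12.5 and 12.1 CPM in the caffeine libraries. Every arecoline library was above every caffeine library. The log2 fold change was 1.35 ± 0.22, with an adjusted p of 0.07 (edgeR), and saline libraries held 10.7 to 21.5 CPM. Btaf1, an ATPase that removes the TATA-binding protein from DNA (chromosome 19, positions 36926079 to 37012752), had 29.2, 47.9, 52.9 and 40.3 CPM in the arecoline libraries, against 21.6, 20.2, 25.3 and 22.01 CPM in the caffeine libraries. All arecoline libraries were again the higher, at a log2 fold change of 0.93 ± 0.15 and an edgeR adjusted p of 0.07, with 27.2 to 31.3 CPM in saline. Tshz1, a zinc finger gene needed for olfactory bulb interneurons in the mouse, had 19.3, 19.5, 23.7 and 9.88 CPM in the arecoline libraries, against 4.404, 4.19, 5.17 and 6.58 CPM in the caffeine libraries. Arecoline replicate 4 was the lowest of its group and still above all caffeine libraries, and the log2 fold change was 1.82 ± 0.33 (edgeR adjusted p = 0.07). Saline libraries held 11.2 to 26.1 CPM of Tshz1, a range that overlapped arecoline and lay above every caffeine library.

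Map3k1, a kinase upstream of the JNK pathway, had 24.4, 14.6, 17.2 and 28.2 CPM in the arecoline libraries, against 7.74, 5.59, 11.7 and 11.6 CPM in the caffeine libraries. Here arecoline replicates 1 and 4 were the high ones of a group that did not overlap with caffeine. A log2 fold change of 1.20 ± 0.25 had an adjusted p of 0.105 (edgeR), which became 0.041 without arecoline replicates 2 and 3. Slco5a1, a member of the organic anion transporter family, had 11.9, 9.39, 16.03 and 11.4 CPM in the arecoline libraries, against 1.79, 3.105, 6.95 and 4.61 CPM in the caffeine libraries, and 12.4 to 21.1 CPM in saline. Each caffeine library was below every arecoline and every saline library, and the log2 fold change was 1.55 ± 0.33. Mccc1, a subunit of the carboxylase that breaks down leucine, had 32.3, 37.95, 44.4 and 33.2 CPM in the arecoline libraries, against 23.2, 22.7, 27.04 and 24.1 CPM in the caffeine libraries, with no overlap.

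The other 4 genes of this set were the zinc finger gene Zfp386, Mtfr1l, which is related to a mitochondrial fission regulator, the heparan sulfate sulfotransferase Hs3st5 and the ubiquitin ligase component Asb2. Their log2 fold changes were 0.54, 0.39, 0.84 and 1.295, with edgeR adjusted p between 0.105 and 0.109. Asb2 was at 7.21, 6.73, 4.06 and 3.61 CPM in the arecoline libraries, against 2.42, 2.25, 1.94 and 2.18 CPM in the caffeine libraries. For all 10 genes the groups did not overlap, which 3.99% of all genes showed in this direction, and being chosen for a low p they would tend to show it. DESeq2 gave all 10 an adjusted p under 0.05.

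Genes of lowest p that were lower with arecoline included the transporter genes Slco3a1 and Slc6a17 and the secreted antagonist gene Chrd. Slco3a1, an organic anion transporter (chromosome 7, positions 74275419 to 74554780), had 14.8, 15.7, 16.6 and 14.3 CPM in the arecoline libraries, against 25.2, 25.8, 22.2 and 24.9 CPM in the caffeine libraries. Neither group had a library that stood apart, and the log2 fold change was -0.68 ± 0.11 (edgeR adjusted p = 0.07). Chrd, which encodes the BMP antagonist chordin (chromosome 16, positions 20733127 to 20742384), had 23.6, 15.9, 9.85 and 24.1 CPM in the arecoline libraries, against 51.7, 50.5, 50.4 and 40.2 CPM in the caffeine libraries. Arecoline replicate 3 was the lowest, all 4 were below caffeine, and the log2 fold change was -1.39 ± 0.24 (edgeR adjusted p = 0.07), while saline libraries held 13.8 to 27.2 CPM. Slc6a17, a vesicular transporter of neutral amino acids, had 104, 138, 97.8 and 129 CPM in the arecoline libraries, against 215, 206, 172 and 167 CPM in the caffeine libraries, again without overlap.

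Clcn2, a chloride channel, had 14.2, 18.2, 10.1 and 14.9 CPM in the arecoline libraries, against 31.7, 29.03, 27.4 and 23.05 CPM in the caffeine libraries. Saline libraries held 21.9 to 32.3 CPM of Clcn2, a range that overlapped caffeine and lay above every arecoline library. Unc5a, a netrin receptor, had 40.03, 43.2, 26.4 and 33.96 CPM in the arecoline libraries, against 85.3, 56.8, 62.9 and 56.2 CPM in the caffeine libraries. Sort1, the sorting receptor sortilin, varied little within arecoline, at 94.5, 102, 95.3 and 95.7 CPM, against 134, 138, 126 and 147 CPM in the caffeine libraries. The log2 fold changes of these 3 genes were -0.95, -0.86 and -0.49.

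Arhgap39, a GTPase-activating protein, the keratan sulfate sulfotransferase Chst1, the semaphorin Sema4f and Spred2, an inhibitor of Ras signalling, complete this set, with log2 fold changes of -0.82, -0.79, -0.69 and -0.62. All 10 had an edgeR adjusted p of about 0.07, all passed with DESeq2, and for none did the groups overlap, against a background of 5.19% of genes in this direction. Without arecoline replicates 2 and 3, the log2 fold change of Chrd was -1.02 (edgeR adjusted p = 0.11), that of Slco3a1 -0.76 (edgeR adjusted p = 0.07) and that of Sort1 -0.52 (edgeR adjusted p = 0.136). All 10 kept their sign in that fit.

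**Figure D3:**
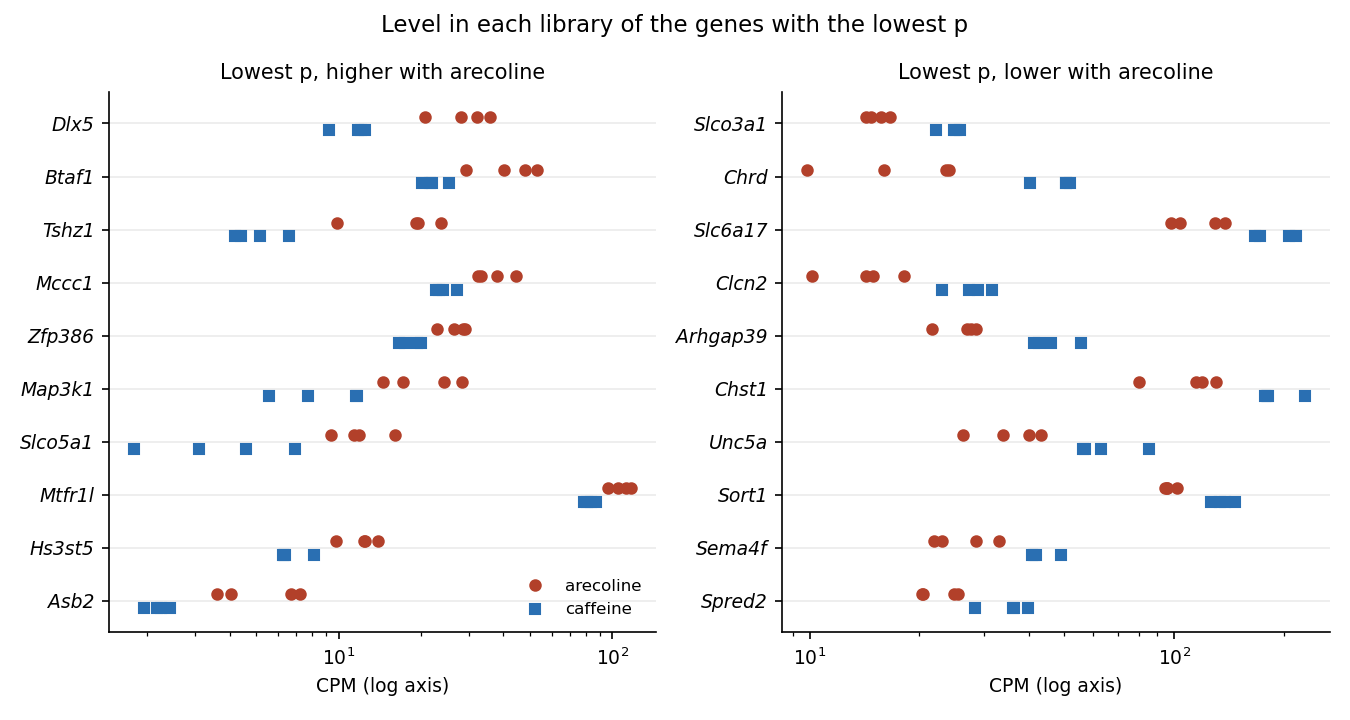
CPM on a log axis in each arecoline (red circles) and caffeine (blue squares) library for the 10 genes of lowest p that were higher with arecoline (left) and the 10 that were lower (right), lowest p at the top. The groups do not overlap for any of the 20 genes, and no edgeR adjusted p is under 0.05.

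Among the receptors that arecoline acts on, Chrm1 was lower and Chrm2 higher, neither past the threshold. Chrm1, the M1 receptor, which signals through Gq and is abundant in forebrain neurons (chromosome 19, positions 8663789 to 8683587), had 240.2, 242, 225 and 249.9 CPM in the arecoline libraries, against 355, 339, 279 and 300.3 CPM in the caffeine libraries. The groups did not overlap, the log2 fold change was -0.41 ± 0.10 and the edgeR adjusted p was 0.121. DESeq2 put Chrm1 past the threshold (adjusted p = 0.018). Saline libraries held 209.7 to 281 CPM of Chrm1, which overlapped both compounds.

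Chrm2, the Gi-coupled M2 receptor (chromosome 6, positions 36388084 to 36528414), had 19.5, 11.6, 9.78 and 27.01 CPM in the arecoline libraries, against 6.24, 7.99, 9.96 and 9.43 CPM in the caffeine libraries. Arecoline replicates 1 and 4 were high, and replicate 3 lay inside the caffeine range. Over all 4 libraries the log2 fold change was 1.01 ± 0.26 (edgeR adjusted p = 0.121). It was 1.46 ± 0.20 without arecoline replicates 2 and 3, where Chrm2 passed (edgeR adjusted p = 0.022), and DESeq2 also called it (adjusted p = 0.019). The 2 arecoline libraries high for Chrm2 were those low for striatal markers and high for olfactory bulb markers, whose part in the result was not tested.

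Chrm4, the M4 receptor, had 8.999, 20.4, 31.9 and 7.002 CPM in the arecoline libraries, against 7.405, 11.6, 8.35 and 7.92 CPM in the caffeine libraries, so that it followed the striatal libraries, and its edgeR adjusted p was 0.284. Chrm3 had 2.38, 3.73, 1.06 and 6.43 CPM in the arecoline libraries, against 5.23, 6.36, 6.41 and 5.85 CPM in the caffeine libraries (edgeR adjusted p = 0.324). Chrm5 stayed at or below 2.06 CPM in every arecoline library and 0.496 CPM in every caffeine library. Of the 22 tested genes for muscarinic receptors and Gq signalling, 5 were higher and 3 lower at an unadjusted p under 0.05, beside 7.88% and 7.97% of all genes, and the median log2 fold change was -0.08. Rgs4, which shortens Gq and Gi signals, had 277, 311, 381 and 312 CPM in the arecoline libraries, against 208, 173, 227 and 254 CPM in the caffeine libraries, the groups not overlapping (edgeR adjusted p = 0.16). The protein kinase C gene Prkcb had a log2 fold change of -0.34 ± 0.12 (edgeR adjusted p = 0.203).

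Chat and Slc5a7, which serve acetylcholine synthesis, were high in arecoline replicates 2 and 3, as was Ache. Chat, which encodes choline acetyltransferase, had 0.331, 16.97, 23.9 and 0.104 CPM in the arecoline libraries, against 0.0484, 1.24, 0.703 and 1.92 CPM in the caffeine libraries. Replicates 2 and 3 of arecoline were far above the rest, and the other arecoline libraries lay within the caffeine range. Slc5a7, the choline transporter, had 0.86, 12.4, 28.2 and 1.62 CPM in the arecoline libraries, against 1.31, 0.466, 1.36 and 4.04 CPM in the caffeine libraries. The edgeR adjusted p was 0.19 for Chat and 0.187 for Slc5a7. Ache, the enzyme that breaks acetylcholine down, had 75.7, 127, 122 and 62.7 CPM in the arecoline libraries, against 77.1, 73.1, 71.1 and 73.5 CPM in the caffeine libraries (edgeR adjusted p = 0.509). Acly, which supplies acetyl-CoA in many cells, was at 229.5, 213, 278 and 184 CPM with arecoline, against 154, 176, 179 and 168 CPM with caffeine, with no overlap and with arecoline replicate 1 above replicate 2. Over the 8 genes of this list the median was 0.41, and it was -0.31 without arecoline replicates 2 and 3.

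Nicotinic receptor genes gave a median log2 fold change of -0.11 over 9 tested genes, with 1 lower at an unadjusted p under 0.05 (background 7.97%). That gene was Ly6h, which encodes a protein that binds nicotinic receptors, at 324, 316, 195 and 345 CPM in the arecoline libraries, against 563, 366, 415 and 332 CPM in the caffeine libraries.

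On the caffeine side, the adenosine receptor genes had unlike patterns over the libraries. Adora1, the widely expressed adenosine receptor, had 149.5, 244, 219.8 and 151 CPM in the arecoline libraries, against 176, 208, 168 and 202 CPM in the caffeine libraries, with a log2 fold change of 0.02 ± 0.16. Adora2a, the adenosine receptor of indirect-pathway neurons, had 3.44, 281, 307 and 1.31 CPM in the arecoline libraries, against 2.76, 3.03, 3.14 and 35.7 CPM in the caffeine libraries and 26.6 to 356 CPM in the saline libraries. Arecoline replicates 2 and 3 were high and caffeine replicate 4 stood above the other caffeine libraries, while 5 of the 8 libraries held under 4 CPM. Its log2 fold change of 3.72 ± 1.41 (edgeR adjusted p = 0.217) became -2.28 ± 1.43 without arecoline replicates 2 and 3. Adora2b was at 9.07, 6.84, 7.45 and 7.16 CPM with arecoline, against 7.45, 5.899, 11.8 and 7.46 CPM with caffeine.

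The enzymes that handle adenosine included 2 genes whose groups did not overlap, both wholly above caffeine (background 3.99%). Nt5e, the ectonucleotidase CD73, which makes adenosine outside cells, had 7.54, 25.9, 45.4 and 7.32 CPM in the arecoline libraries, against 1.84, 2.25, 3.56 and 6.01 CPM in the caffeine libraries and 6.41 to 50.7 CPM in the saline libraries. All arecoline libraries were above all caffeine libraries, although replicates 1 and 4 only just, and the log2 fold change was 2.64 ± 0.74 (edgeR adjusted p = 0.145, DESeq2 adjusted p = 0.031). Adk, adenosine kinase, which removes adenosine inside cells, had 95.7, 96.7, 83.6 and 87.99 CPM in the arecoline libraries, against 67.2, 63.03, 73.6 and 73.1 CPM in the caffeine libraries. Its log2 fold change was 0.39 ± 0.11 over all libraries (edgeR adjusted p = 0.148, DESeq2 adjusted p = 0.044) and 0.40 ± 0.14 without arecoline replicates 2 and 3, so that Adk differed by as much without the striatal libraries. Of 15 tested adenosine genes, 3 were higher at an unadjusted p under 0.05 and 0 were lower, beside 7.88% and 7.97% of all genes. The median of the 15 genes was 0.06, and -0.0865 without arecoline replicates 2 and 3.

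**Figure D4:**
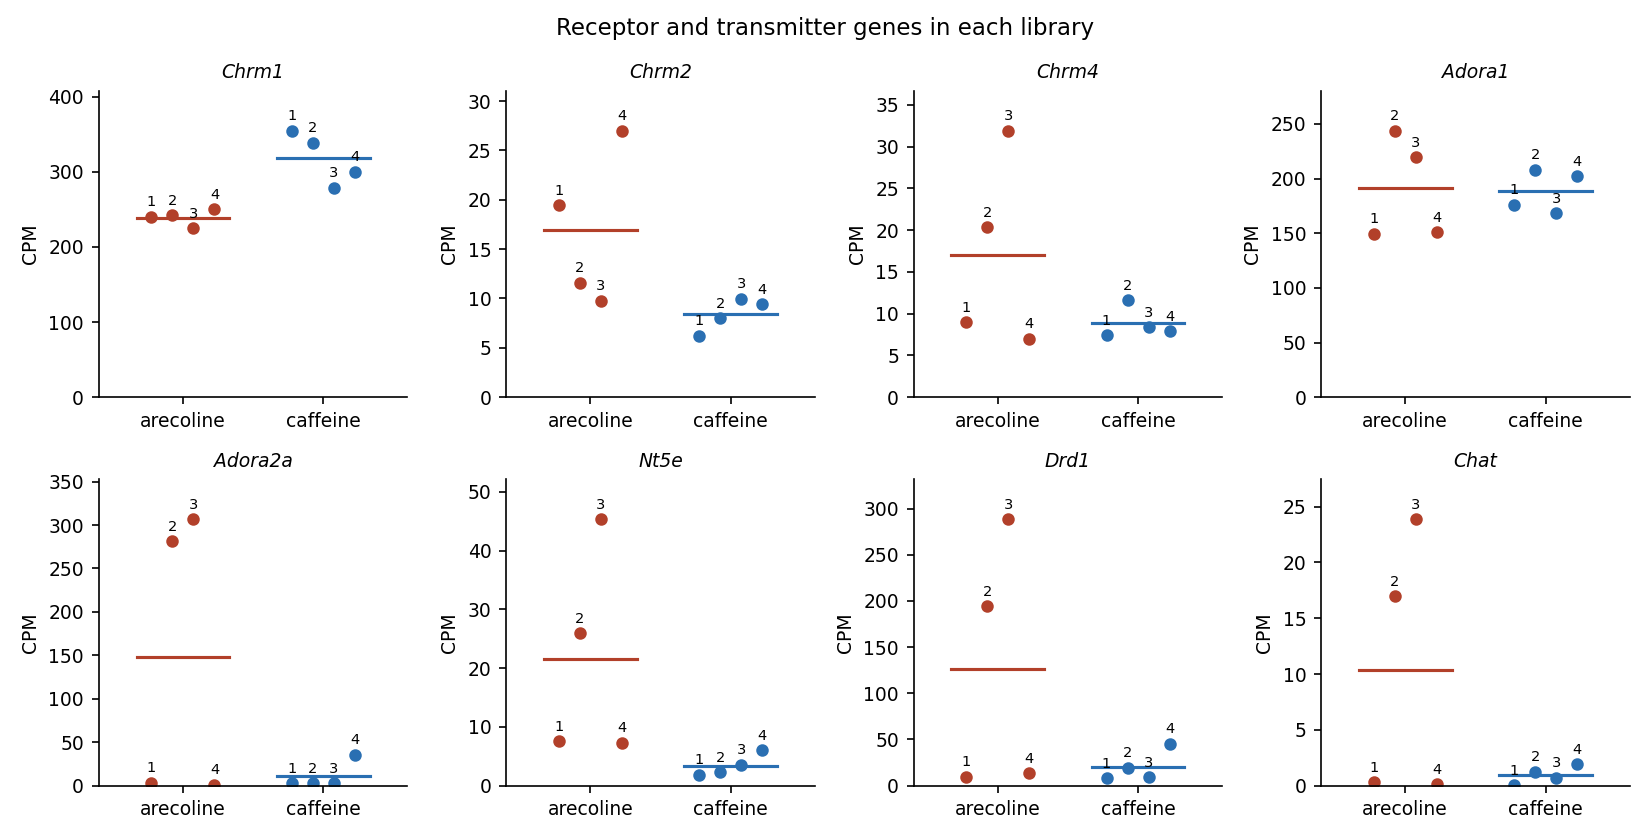
CPM of 8 receptor and transmitter genes in each arecoline (red) and caffeine (blue) library; numbers are replicates and lines group means. Chrm1 is lower in all 4 arecoline libraries, Nt5e is higher in all 4, Chrm2 is highest in arecoline replicates 1 and 4, and Adora2a, Drd1, Chrm4 and Chat are highest in arecoline replicates 2 and 3.

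Cyclic AMP genes, the relay of adenosine, dopamine and several muscarinic receptors, split by member. Adcy9, an adenylyl cyclase, had 24.5, 34.4, 28.3 and 30.9 CPM in the arecoline libraries, against 50.4, 50.99, 40.8 and 45.2 CPM in the caffeine libraries. The groups did not overlap (log2 fold change -0.66 ± 0.15, edgeR adjusted p = 0.109, DESeq2 adjusted p = 0.0066). Adcy1, the calmodulin-stimulated cyclase of cortical and hippocampal neurons, had 109.8, 107, 63.4 and 140.3 CPM in the arecoline libraries, against 172, 199.6, 169 and 202 CPM in the caffeine libraries, with arecoline replicate 3 the lowest. The phosphodiesterase Pde8a had 3.11, 4.75, 3.86 and 2.35 CPM in the arecoline libraries, against 1.84, 1.63, 1.78 and 2.43 CPM in the caffeine libraries, and overlapped through replicate 4 of each group. Pde9a had a log2 fold change of 0.64 ± 0.20 (edgeR adjusted p = 0.164), its highest values being those of arecoline replicates 2 and 3. Of 29 tested genes, 9 were higher and 6 lower at an unadjusted p under 0.05, against 7.88% and 7.97% of all genes, and 1 lay wholly above and 5 wholly below caffeine, against 3.99% and 5.19%. The median log2 fold change was 0.15, and -0.31 without arecoline replicates 2 and 3.

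Calcium release genes, among them the ryanodine receptors that caffeine opens at high concentration, were 12 in number, with a median of -0.08 on the log2 scale. Camk2a, the calcium and calmodulin dependent kinase of excitatory synapses, had 3139, 3410.1, 2689 and 3533 CPM in the arecoline libraries, against 4926, 4214, 4789 and 4200.4 CPM in the caffeine libraries, without overlap (edgeR adjusted p = 0.147, DESeq2 adjusted p = 0.035). Ryr2 was at 52.5, 33.8, 30.2 and 50.4 CPM with arecoline, against 57.4, 71.1, 54.3 and 60.1 CPM with caffeine, where all arecoline libraries were lower. Ryr3 and Ryr1 went with the striatal libraries, and their log2 fold changes were 1.08 ± 0.43 and 0.88 ± 0.36. On the FPKM values the log2 fold change of Ryr3 was negative, at -0.13, and so was that without arecoline replicates 2 and 3, also -0.13.

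Dopamine signalling genes such as Drd1, Drd2 and Rgs9 had wide fold changes that rested on arecoline replicates 2 and 3. Drd1 had 9.66, 194, 289 and 13.7 CPM in the arecoline libraries, against 7.89, 19.6, 9.09 and 45.6 CPM in the caffeine libraries, and 71.9 to 306 CPM in saline. The Drd1 log2 fold change of 2.62 ± 0.89 (edgeR adjusted p = 0.187) became -0.81 ± 0.70 without arecoline replicates 2 and 3. That of Drd2 was 3.24 ± 1.23 (edgeR adjusted p = 0.222), and -2.55 ± 1.29 without them. Rgs9, a striatal regulator of D2 and opioid receptor signals, had 35.1, 339.9, 492 and 43.9 CPM in the arecoline libraries, against 48.01, 50.2, 31.8 and 80.96 CPM in the caffeine libraries. For Rgs9, 2 arecoline libraries stood above all others and 2 lay within the caffeine range. Th, of the same list, was instead highest in arecoline replicates 1 and 4. Its log2 fold change was 2.12 ± 0.58, and 2.80 without arecoline replicates 2 and 3. Of 19 tested dopamine genes, 12 were higher at an unadjusted p under 0.05, beside 7.88% of all genes. The median log2 fold change of this list was 1.29, and it was -0.42 without arecoline replicates 2 and 3. Those libraries were left out because of their striatal marker levels, so the second value of any striatal list is a description of the libraries that remained.

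Medians of the striatal cell type lists shared that pattern. The median log2 fold change was 2.48 for 9 direct-pathway, 2.47 for 8 indirect-pathway, 1.48 for 16 general medium spiny neuron and 2.56 for 9 cholinergic interneuron genes, and without arecoline replicates 2 and 3 the medians were -0.14, -0.78, -0.64 and -1.82. Unadjusted p was under 0.05 in the higher direction for 6, 7, 13 and 5 genes of these lists (7.88% of all genes). In the lower direction it was so for 1 direct-pathway gene (7.97% of all genes). That gene was Eya1, a transcriptional coactivator, with 13.2, 10.5, 8.52 and 13.4 CPM in the arecoline libraries, against 14.6, 19.02, 16.99 and 21.8 CPM in the caffeine libraries, without overlap. Another direct-pathway gene, Sfxn1, had a log2 fold change of -0.0179. Tac1, which encodes the substance P precursor of direct-pathway neurons, had 55.3, 596, 755 and 65.3 CPM in the arecoline libraries, against 51.3, 46.5, 44.5 and 121 CPM in the caffeine libraries. Penk, the enkephalin precursor of indirect-pathway neurons, had 187, 2084, 2824 and 143 CPM in the arecoline libraries, against 216, 243, 192 and 620.0 CPM in the caffeine libraries. In both genes caffeine replicate 4 was the highest of its group, as it was for Drd1, Drd2 and Adora2a. Pdyn, Slc35d3, Gpr52, Gpr149, Isl1 and Lhx8 had log2 fold changes of 2.80, 2.80, 1.89, 3.47, 2.78 and 3.85, none past the edgeR threshold. Ptprm and Meis2 differed less, at 0.73 ± 0.28 and 0.76 ± 0.24, and in both every arecoline library was above every caffeine library.

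Neuropeptide genes divided between the pairs of arecoline libraries. Cartpt, the precursor of the CART peptide, had 7.54, 157, 223 and 6.64 CPM in the arecoline libraries, against 4.598, 6.598, 3.68 and 14.04 CPM in the caffeine libraries, and Nts, neurotensin, had 4.76, 24.04, 23.2 and 4.39 CPM with arecoline, against 4.99, 6.68, 3.84 and 6.68 CPM with caffeine. Both were high in arecoline replicates 2 and 3. Trh, thyrotropin-releasing hormone, had 30.2, 5.94, 4.86 and 10.03 CPM in the arecoline libraries, against 2.37, 1.24, 6.61 and 2.12 CPM in the caffeine libraries, with replicate 1 of arecoline the highest. Its log2 fold change of 2.02 ± 0.60 (edgeR adjusted p = 0.152) passed with DESeq2 (adjusted p = 0.025). Over 21 neuropeptide and opioid receptor genes the median log2 fold change was 0.55. At an unadjusted p under 0.05, 8 were higher and 1 lower, beside 7.88% and 7.97% of all genes. Without arecoline replicates 2 and 3 the median of this list was -0.0679.

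Of 18 genes known from the olfactory bulb and from migrating neuroblasts, 13 were higher in the other pair, arecoline replicates 1 and 4, than in the other 2 arecoline libraries and every caffeine library. The 5 that were not were Tshz1 and Dlx5, whose values are given earlier, Reln, Lhx1 and Lhx5. Reln, a secreted glycoprotein, had 37.1, 25.96, 28.01 and 23.7 CPM in the arecoline libraries, against 16.8, 18.5, 30.1 and 25.8 CPM in the caffeine libraries, with arecoline replicate 4 the lowest of its group. The 18 genes were gathered after their values were seen, so they are described without a test. The share of all genes with this pattern was not counted, so the 13 of 18 cannot be set against a background. Doc2g, which encodes a protein with C2 domains, had 141, 10.9, 14.1 and 54.3 CPM in the arecoline libraries, against 5.23, 2.02, 15.4 and 4.66 CPM in the caffeine libraries. Th, the rate-limiting enzyme of dopamine synthesis, which periglomerular neurons of the bulb make, had 78.5, 16.1, 13.8 and 44.9 CPM in the arecoline libraries, against 7.31, 3.57, 20.7 and 3.21 CPM in the caffeine libraries. Eomes, a transcription factor of mitral and tufted cells, had 4.57, 0, 0.133 and 3.14 CPM in the arecoline libraries, against 0.29, 0, 0.331 and 0.0518 CPM in the caffeine libraries. In all 3, arecoline replicates 1 and 4 were above every caffeine library and the other 2 arecoline libraries lay within the caffeine range.

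Summed over 7 mitral and tufted cell genes, the level was 312, 65.6, 57.9 and 156 CPM in the arecoline libraries, against 58.6, 50.6, 95.04 and 65.5 CPM in the caffeine libraries and 60.9 to 106 CPM in the saline libraries. Lhx1 and Lhx5, which also mark these cells, were at most 0.199 CPM with arecoline, and Lhx5 was at 0 in all 4 arecoline libraries. Over 8 genes of bulb interneurons and neuroblasts it was 687, 194, 202 and 485 CPM in the arecoline libraries, against 239.8, 257, 287 and 208 CPM in the caffeine libraries. Dcx, a microtubule protein of migrating neuroblasts, had 83.6, 10.3, 21.8 and 45.7 CPM in the arecoline libraries, against 12.2, 12.5, 22.8 and 23.2 CPM in the caffeine libraries, and Dlx1, a homeobox gene of GABAergic neurons, had 73.9, 19.6, 19.8 and 51.1 CPM with arecoline, against 20.1, 17.5, 32 and 25.1 CPM with caffeine. Over 11 tested genes of neuroblasts and neural stem cells the median log2 fold change was 0.35, and 1.02 without arecoline replicates 2 and 3. Sox11, a neuroblast transcription factor, was at 97.6, 45.8, 65.5 and 71.5 CPM with arecoline, against 33.6, 34.1, 41.01 and 57.7 CPM with caffeine. The part of these genes in the other results was not tested.

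With arecoline replicates 2 and 3 left out, 13 genes were higher with arecoline at an edgeR adjusted p under 0.05 (0.0862% of those tested). They were Doc2g, Lgr6, Lgr5, Dcx, Map3k1, Cacng5, Chrm2, Dlx1, Gng4, Ptpro, Cpne4, Inpp5j and Pcbp3. That fit held arecoline replicates 1 and 4 alone, the others having been left out for their striatal marker levels. Doc2g, Dcx and Dlx1 belong to the bulb genes gathered after their values were seen, so their calls are no separate support for that pattern. Doc2g rose by 3.80 ± 0.57 on the log2 scale in that fit, and the R-spondin receptors Lgr5 and Lgr6 rose by 2.23 ± 0.38 and 2.95 ± 0.48. Cacng5, an AMPA receptor auxiliary subunit, had 73.6, 31.2, 26.1 and 59.2 CPM in the arecoline libraries, against 21.5, 20.7, 28.8 and 23.2 CPM in the caffeine libraries. The 2 genes that fell were Nyap1 and Vapb, by 0.91 ± 0.16 and 0.88 ± 0.15 (0.0133% of those tested). Of these 15 calls, 8 were also made by DESeq2 on all libraries. With a covariate for the medium spiny neuron level, Dlx5, Chrm2 and Pcp4l1 (3 genes, 0.0204%) passed as higher and Chrd and Hrk (2 genes, 0.0136%) as lower.

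Cortical excitatory neuron markers were lower in all arecoline libraries. Their summed level was 1157, 907, 598 and 1277 CPM in the arecoline libraries, against 1871, 1999, 1619 and 1606 CPM in the caffeine libraries and 437 to 1403 CPM in the saline libraries. Of 15 genes, 14 had a negative log2 fold change (background 47.4%), 4 at an unadjusted p under 0.05 (background 7.97%). The median was -0.77, or -0.27 without arecoline replicates 2 and 3. Slc17a7, the vesicular glutamate transporter of cortical neurons, had 279, 240.0, 116 and 287 CPM in the arecoline libraries, against 493, 485, 371 and 441 CPM in the caffeine libraries. Nptx1, a pentraxin of excitatory synapses, had 304, 290.0, 182 and 349 CPM in the arecoline libraries, against 561, 708, 489.6 and 525 CPM in the caffeine libraries (edgeR adjusted p = 0.146, DESeq2 adjusted p = 0.02). Neither overlapped, and replicate 3 of arecoline was the lowest for each. Neurod2 and Rasgrf2 had log2 fold changes of -1.04 ± 0.41 and -0.83 ± 0.30. The groups differed in this marker list alongside the synaptic genes that follow, and its part in them was not tested.

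Most synaptic release genes had slightly lower values with arecoline. Of 29 tested genes, 24 had a negative log2 fold change, beside 47.4% of all genes. At an unadjusted p under 0.05, 11 were lower and 3 higher, beside 7.97% and 7.88% of all genes. Wholly below caffeine lay 11 (background 5.19%). The median log2 fold change was -0.24, and -0.19 without arecoline replicates 2 and 3. Bsn, the active zone protein bassoon, had 153, 160.1, 125 and 145 CPM in the arecoline libraries, against 225, 251, 198 and 214 CPM in the caffeine libraries (log2 fold change -0.61 ± 0.16, edgeR adjusted p = 0.124, DESeq2 adjusted p = 0.019). Rims1, an active zone scaffold, and Syn2, a synapsin, had log2 fold changes of -0.70 ± 0.22 and -0.65 ± 0.21. For all 3 genes the arecoline libraries lay below every caffeine library, and none passed with edgeR.

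Glutamate receptor and scaffold genes gave a median log2 fold change of -0.15 over 33 tested genes. At an unadjusted p under 0.05, 9 were lower and 3 higher, beside 7.97% and 7.88% of all genes. Wholly below caffeine lay 6 and wholly above it 1, beside 5.19% and 3.99% of all genes. Grin3a, an NMDA receptor subunit, had 55.8, 45.9, 34.5 and 80.3 CPM in the arecoline libraries, against 122, 107, 124 and 80.3 CPM in the caffeine libraries, with replicate 4 of the groups meeting. Its log2 fold change was -1.004 ± 0.23 (edgeR adjusted p = 0.111, DESeq2 adjusted p = 0.0054). Shank1, a postsynaptic scaffold, had 94.6, 81.8, 52.8 and 89.04 CPM in the arecoline libraries, against 181, 152, 143 and 103 CPM in the caffeine libraries. The kainate receptor gene Grik3 had a log2 fold change of -0.38 ± 0.13, and the metabotropic receptor gene Grm7 went the other way, at 0.68 ± 0.23.

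GABA genes differed most in synthesis. Gad1, which encodes the GABA-making enzyme GAD67, had 633, 538, 694 and 579 CPM in the arecoline libraries, against 257, 269.7, 422 and 327 CPM in the caffeine libraries and 359 to 729.9 CPM in the saline libraries. All 4 arecoline libraries were above caffeine, those low and those high for striatal markers alike. The log2 fold change was 0.94 ± 0.21 (edgeR adjusted p = 0.111, DESeq2 adjusted p = 0.0043), and 0.92 ± 0.26 without arecoline replicates 2 and 3. Gad2, which encodes GAD65, had 198, 502, 683 and 165 CPM in the arecoline libraries, against 133, 158, 152 and 213 CPM in the caffeine libraries, and there replicates 2 and 3 of arecoline carried the difference. Abat, which breaks GABA down, had a log2 fold change of 0.86 ± 0.30. Gabbr2, a GABA-B receptor subunit, had 69.9, 56.1, 33.5 and 61.8 CPM in the arecoline libraries, against 102, 105, 84.5 and 104 CPM in the caffeine libraries, all arecoline libraries being lower (edgeR adjusted p = 0.131, DESeq2 adjusted p = 0.019). Over 21 GABA genes the median log2 fold change was 0.11. At an unadjusted p under 0.05, 6 were higher and 1 lower, beside 7.88% and 7.97% of all genes.

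Myelin genes all leaned to the arecoline side. All 16 mature oligodendrocyte genes had a positive log2 fold change, between 0.54 and 0.79, beside 52.6% of all genes above 0. Of these, 15 had an unadjusted p under 0.05 (background 7.88%), and 3 lay wholly above caffeine (background 3.99%). Their summed level was 6527, 7179, 10130.1 and 4781 CPM in the arecoline libraries, against 3662, 4336, 4880.2 and 5868 CPM in the caffeine libraries and 7646 to 8923 CPM in the saline libraries. Arecoline replicate 4 lay inside the caffeine range and replicate 3 was far above it. The median of 0.64 was 0.25 without arecoline replicates 2 and 3. Trf, the iron carrier transferrin, had 278, 269, 379.8 and 206 CPM in the arecoline libraries, against 139, 154, 196 and 195 CPM in the caffeine libraries (edgeR adjusted p = 0.109, DESeq2 adjusted p = 0.0041). Ermn, a myelin cytoskeletal protein, and Aspa, which breaks down N-acetylaspartate, had log2 fold changes of 0.79 ± 0.23 and 0.75 ± 0.22, and Mog, a myelin surface protein, 0.64 ± 0.20. These 16 genes are expressed by the same cells, so their agreement is not that of independent measurements.

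Other glial and vascular lists had medians nearer 0. The log2 fold change was -0.03 for 12 oligodendrocyte precursor genes, 0.06 for 15 astrocyte genes and -0.03 for 16 microglia genes. At an unadjusted p under 0.05 there were 1, 0 and 0 genes, beside 7.88% of all genes higher and 7.97% lower. Enpp6, which marks newly formed oligodendrocytes, was that gene, at 0.59 ± 0.26. Medians were 0.08 for 14 endothelial, 0.16 for 12 pericyte and smooth muscle, 0.16 for 12 fibroblast and meningeal, -0.16 for 9 perivascular macrophage and leukocyte and 0.24 for 5 red blood cell genes. Without arecoline replicates 2 and 3 these 5 medians were -0.27, -0.18, -0.55, -0.77 and -0.53. Egfl7, an endothelial secreted factor, had 35.3, 38.1, 22.2 and 31.9 CPM in the arecoline libraries, against 47.2, 43.9, 43.1 and 44.5 CPM in the caffeine libraries, without overlap. Ependymal and choroid plexus genes summed to 22.2, 157, 273 and 29.8 CPM in the arecoline libraries, against 67.9, 52.4, 73.5 and 16.5 CPM in the caffeine libraries, so that arecoline replicates 2 and 3 were high here also, and the median over 10 genes was 0.83, but -0.67 without those libraries. Clic6, an intracellular chloride channel protein of that list, had a log2 fold change of 1.99 ± 0.82.

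The remaining neuronal medians were -0.21 for 15 other interneuron, 0.54 for 9 septal and other subcortical and -0.32 for 12 olfactory sensory neuron genes. Without arecoline replicates 2 and 3 these medians were -0.0875, -0.0724 and -0.64. Unadjusted p was under 0.05 for 1, 4 and 0 genes of these lists, all higher (background 7.88%). Onecut2 and Dlx2 of the subcortical list had log2 fold changes of 2.29 ± 0.79 and 0.98 ± 0.35, the first following arecoline replicates 2 and 3 and the other arecoline replicates 1 and 4. Olfactory sensory neuron genes summed to 268, 604, 756 and 304 CPM in the arecoline libraries, against 418, 416, 349.9 and 389 CPM in the caffeine libraries. The sum did not stand for every member. Omp of that list had 5.56, 12.6, 2.99 and 9.25 CPM with arecoline, against 27.7, 14.2, 9.18 and 0.518 CPM with caffeine. Averaged on the log2 scale, each gene centred on its mean, the list stood at -0.41, 0.90, -0.15 and 0.16 with arecoline. With caffeine it stood at 1.13, 0.44, 0.11 and -0.94.

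Of the activity-induced genes, 0 passed the edgeR threshold. Fos had 46.2, 62.3, 70.2 and 83.4 CPM in the arecoline libraries, against 47.5, 55.3, 55.6 and 94.8 CPM in the caffeine libraries. Arc had 154, 245, 286 and 263 CPM in the arecoline libraries, against 139, 204, 177 and 313 CPM in the caffeine libraries, and Egr1 148, 255, 335 and 259 CPM with arecoline, against 177, 218, 179.7 and 285 CPM with caffeine. The groups overlapped for all 3, with edgeR adjusted p of 0.952, 0.818 and 0.696. Npas4, induced by calcium entry in neurons, had 10.4, 10.1, 6.52 and 9.61 CPM in the arecoline libraries, against 17.9, 12.2, 3.84 and 13.2 CPM in the caffeine libraries. Over 29 genes the median log2 fold change was -0.08, with 3 lower at an unadjusted p under 0.05 (background 7.97%). These were Gadd45b, Nr4a3 and Egr4, with log2 fold changes of -0.48 ± 0.15, -0.74 ± 0.23 and -1.20 ± 0.47.

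Chaperone genes were near even at the median, with single members lower. The median log2 fold change was 0.00 for 22 cytosolic heat shock genes and 0.07 for 22 genes of the endoplasmic reticulum and unfolded protein response. Hspa1a, an inducible HSP70 that shares reads with Hspa1b, had 34.9, 27.4, 16.03 and 29.4 CPM in the arecoline libraries, against 50, 42.5, 40.4 and 36.8 CPM in the caffeine libraries and 11.3 to 19.8 CPM in the saline libraries. All arecoline libraries were below caffeine (log2 fold change -0.65 ± 0.21, edgeR adjusted p = 0.177). Its co-chaperone gene Dnajb1 had 87.9, 99.3, 80.6 and 85.02 CPM in the arecoline libraries, against 106, 112, 109 and 98.9 CPM in the caffeine libraries. Hsp90ab1 and Cryab had log2 fold changes of -0.24 ± 0.10 and 0.30 ± 0.13. Atf4, a transcription factor of the integrated stress response, had 72.7, 73.7, 62.9 and 77.6 CPM in the arecoline libraries, against 114, 119, 89.5 and 81.9 CPM in the caffeine libraries, again without overlap. Hspa5, the reticulum chaperone BiP, overlapped, at 0.16 ± 0.12, while Sdf2l1 and Trib3 had log2 fold changes of -0.23 ± 0.11 and 2.46 ± 1.09.

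Housekeeping lists showed small differences. The median for 48 cytosolic ribosomal protein genes was -0.10 on the log2 scale, and 0.00 without arecoline replicates 2 and 3. Rplp1 and Rps15, the 2 with an unadjusted p under 0.05 (background 7.97% lower), were at -0.39 ± 0.15 and -0.32 ± 0.14. For 42 respiratory chain genes of the nucleus it was 0.02, with Atp5d at -0.29 ± 0.11 and Ndufs1 at 0.25 ± 0.11. For the 13 mitochondrially encoded genes it was -0.08, and mt-Nd4l had 267, 332, 242 and 384 CPM in the arecoline libraries, against 402, 492, 424 and 405 CPM in the caffeine libraries. It was 0.04 for 19 sterol synthesis genes and 0.19 for 21 interferon and antigen presentation genes, and in these lists no gene had an unadjusted p under 0.05.

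Among 18 clock genes, 1 lay wholly above caffeine (background 3.99%) and 1 wholly below (background 5.19%). Nr1d2, a repressor of the circadian clock, had 69.1, 82.7, 83.4 and 71.4 CPM in the arecoline libraries, against 44.4, 58.9, 63.5 and 61.1 CPM in the caffeine libraries (log2 fold change 0.43 ± 0.11, edgeR adjusted p = 0.13, DESeq2 adjusted p = 0.031). Bhlhe41 and Cry1, also clock repressors, had log2 fold changes of 0.54 ± 0.18 and 0.41 ± 0.18. Nr1d1, the paralog of Nr1d2, was the gene wholly below, at 105, 109.8, 112 and 89.2 CPM in the arecoline libraries, against 119, 120.2, 121 and 118 CPM in the caffeine libraries. The clock list had a median of 0.08, and -0.04 without arecoline replicates 2 and 3. Among 17 glucocorticoid-responsive genes the median was -0.06. The kinase gene Sgk1 was the only one with an unadjusted p under 0.05, at 0.37 ± 0.14 (background 7.88% higher).

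RNA-processing and chromatin genes leaned higher with arecoline. Of 25 splicing genes, 18 had a positive log2 fold change (background 52.6%), with a median of 0.14, and 5 lay wholly above caffeine (background 3.99%). At an unadjusted p under 0.05, 6 were higher and 0 lower, beside 7.88% and 7.97% of all genes. Ddx5, an RNA helicase, had 1327, 1289, 1818 and 1309.8 CPM in the arecoline libraries, against 865, 1019.8, 1028 and 1026 CPM in the caffeine libraries. Replicate 3 of arecoline stood apart above, and the log2 fold change was 0.54 ± 0.12 (edgeR adjusted p = 0.111, DESeq2 adjusted p = 0.0068). The splicing factor genes Srsf7, Srsf5 and Tra2b had log2 fold changes of 0.36 ± 0.11, 0.41 ± 0.13 and 0.25 ± 0.10. Rsrp1 overlapped between the groups, at 0.15 ± 0.11. Of 13 histone variant genes, 5 were higher and 0 lower at an unadjusted p under 0.05 (background 7.88% and 7.97%). Wholly above caffeine lay 4 (background 3.99%), and the median of the list was 0.15. H3f3b, a replication-independent H3.3 gene, had 441, 307, 334 and 434 CPM in the arecoline libraries, against 292, 269, 300.0 and 309.8 CPM in the caffeine libraries, with overlap at replicate 2 of arecoline and replicate 4 of caffeine. The linker histone gene Hist1h1c, H2afv and Hist1h2bc had log2 fold changes of 0.69 ± 0.24, 0.31 ± 0.12 and 0.44 ± 0.16, and H2afx, whose protein marks DNA breaks when phosphorylated, one of -0.08 ± 0.09. Psrc1, a spindle protein, had 7.68, 1.92, 1.26 and 9.35 CPM in the arecoline libraries, against 7.55, 10.01, 10.1 and 5.96 CPM in the caffeine libraries, with arecoline replicates 2 and 3 the lowest.

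**Figure D5:**
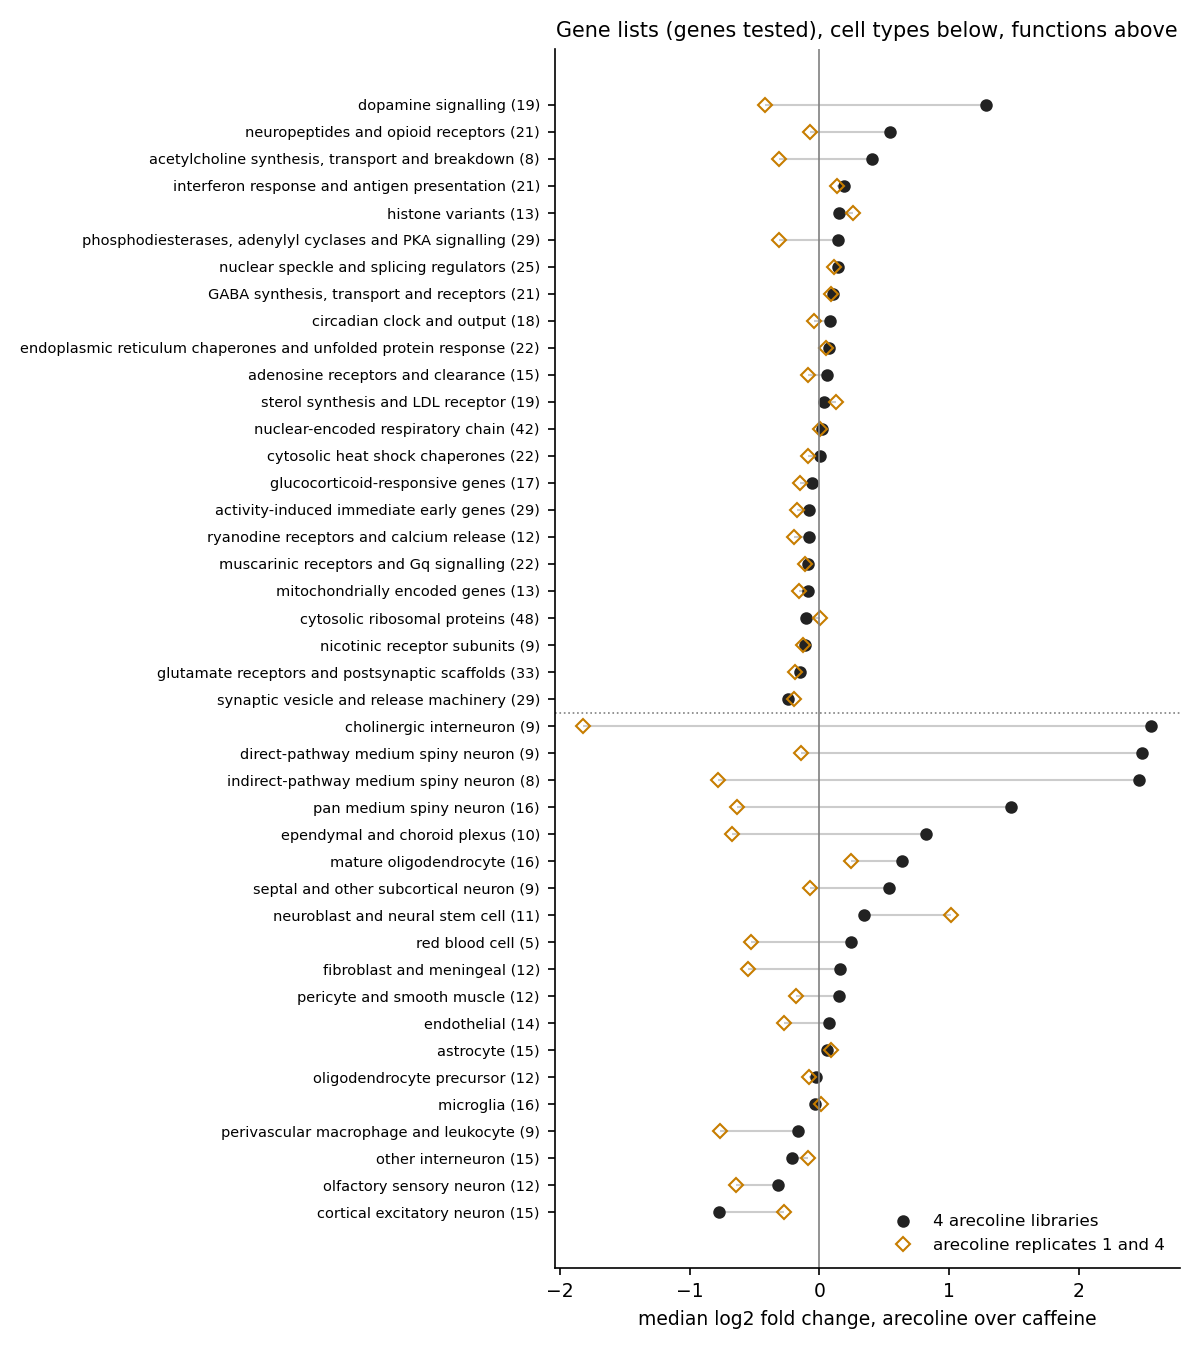
Median log2 fold change, arecoline over caffeine, of 23 functional lists (upper block) and 19 cell type lists (lower block), with the number of genes tested in brackets; filled points use all 4 arecoline libraries and open diamonds arecoline replicates 1 and 4. Striatal lists lie far to the right with 4 libraries and to the left of 0 with replicates 1 and 4, whereas synaptic release, splicing and oligodendrocyte lists keep their sign.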

How the data were processed

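Polyadenylated RNA was measured in 16 libraries, made into PCR-amplified cDNA by oligo-dT priming and template switching, per the labels' protocols. No molecular identifiers are mentioned there, so amplified copies count as separate reads, and the sources used here do not say whether strand was kept. Per the submitters' processing notes, which give no role or order, the tools were RSEM, StringTie 1.3.1, HISAT2, fastp 0.18.0 and Bowtie2 2.2.8, and the build was mm10. The deposited table holds estimated counts for 22337 genes, not scaled for depth, per the file headers and values, of which 82.7% to 86.8% of those above 0 were exactly whole in a library. It also holds FPKM values, which the authors scaled to gene length and library total. Total counts ran from 9.04 to 24.3 M per library, so few reads stand behind a value below 1 CPM. The number of columns of values left unused was 0, and 22283 gene identifiers matched GENCODE M21, which gave symbols and positions.

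Estimated counts were rounded and fitted with edgeR 4.0.16 in R 4.3.3 (filterByExpr, TMM factors, quasi-likelihood test, a mean for each group over 16 libraries, contrast arecoline minus caffeine, two-sided, Benjamini-Hochberg adjustment, threshold 0.05, no minimum fold). DESeq2 1.42.0, other scalings and filters, limma 3.58.1 on log2 FPKM with a pseudocount of 1 or 0.1, each library left out, the replicate number as a block and a medium spiny neuron score as covariate were alternatives. The steps were tested on simulated counts with known changes. At an adjusted p under 0.05, 4 of 120 edgeR calls and 19 of 153 DESeq2 calls were false there. Of the simulated 1.5-fold changes, edgeR recovered 22.4% and DESeq2 35.8%. For 2-fold changes these shares were 64.2% and 74.6%, so true changes of this size can be missed. Simulated libraries of a group shared a mean for each gene, so the split within the arecoline group was not copied. Library totals were compared by exact permutation over 70 regroupings. Within a group no libraries agreed within sampling noise (lowest chi-square per degree of freedom 12.1).

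Named genes were those past the threshold, filled to 10 per direction by lowest p, a list of receptor, activity and stress genes whatever their test, and up to 4 members of lowest unadjusted p in each of 23 functional and 19 cell type lists, kept to those with an unadjusted p under 0.05. Some genes that this picks are not reported here. The comparison, members and lists were chosen with earlier results of these data known. Olfactory bulb genes, Eya1, Sfxn1, Nr1d1, and the genes that passed under an alternative alone, were named after their values were seen. Near-identical genes (Hspa1a and Hspa1b, haemoglobin and ribosomal protein genes) share reads and depend on how the authors' software divided them.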

Additional observations from a re-analysis of the deposited data

Results flagged for a closer look

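In a group of 4 libraries, a library was picked out where its distance to the nearest other exceeded Dixon's 95% limit as a share of the group's range. Of 252 such checks on the named genes and library measures, 20 met it, and chance alone picks out about 1 in 20. Caffeine replicate 4 stood highest of its group for striatal genes, at 35.7 CPM of Adora2a, 6.63 CPM of Drd2, 120.5 CPM of Tac1, 620.0 CPM of Penk and 9.17 CPM of Slc35d3. It was also highest for the stress gene Trib3, at 2.59 CPM, and lowest for Chrd, at 40.2 CPM.

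Caffeine replicate 1 was highest for Chst1 at 229 CPM, for Sdf2l1 at 25.2 CPM and for Atp5d at 469 CPM, and lowest for Ddx5 at 865 CPM. Caffeine replicate 2 was highest for Sema4f at 49.0 CPM. Caffeine replicate 3 was highest for Hs3st5 at 8.14 CPM and lowest for Gabbr2 at 84.5 CPM and for Sgk1 at 66.9 CPM. Arecoline replicate 3 was highest for Ddx5 at 1818 CPM, for Srsf5 at 249 CPM and for Ermn at 63.8 CPM, and lowest for Rplp1 at 170.0 CPM. Arecoline replicate 2 was highest for Sort1, at 102 CPM. The split of the arecoline group into 2 pairs of libraries cannot meet this rule, since the nearest other library is then close by.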

How the results depend on the processing

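Genes past an adjusted p of 0.05 numbered 0 higher and 0 lower with arecoline in edgeR, and also with RLE factors, library totals, a stricter or no low-count filter, the 8 libraries alone or limma on log2 FPKM. They numbered 148 and 222 with DESeq2, 3 and 2 with the medium spiny neuron score as covariate, and 13 and 2 without arecoline replicates 2 and 3. With each library left out in turn they ranged from 0 to 19 higher and from 0 to 48 lower, the highest without arecoline replicate 2. An alternative chosen after seeing the data, which left out arecoline replicates 2 and 3, saline replicate 3 and nicotine replicate 2, gave 46 and 40. With the replicate number as a block they numbered 13 and 24, of which 36 were also DESeq2 calls. The cause of these differences in counts was not tested. Same-numbered arecoline and caffeine libraries correlated at 0.03, -0.05, -0.11 and -0.28 in their deviations from the group means, so the numbers do not show a pairing, and not every library correlated best with its own number.

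Of 2598 gene values under alternatives, 2418 kept their direction and side of the threshold, 107 passed it and 73, in 27 genes, took the opposite direction. Without arecoline replicates 2 and 3 the opposite log2 fold changes were Chrm4 -0.14, Adora1 -0.33, Adora2a -2.28, Drd1 -0.81, Drd2 -2.55, Chat -2.16, Ache -0.0951, Arc -0.0008, Egr1 -0.0813, Psrc1 0.017, Nts -0.27, Slc5a7 -0.54, Ryr3 -0.13, Rgs9 -0.42, Tac1 -0.13, Cartpt -0.0285, Trib3 -0.033, Pdyn -0.56, Gpr52 -0.31, Penk -0.95, Gpr149 -1.12, Lhx8 -4.53, Isl1 -3.47, Onecut2 -0.59 and Clic6 -1.34. In the alternative that also left out a saline and a nicotine library they were Chrm4 -0.13, Adora1 -0.32, Adora2a -2.27, Drd1 -0.79, Drd2 -2.53, Chat -2.16, Ache -0.0866, Egr1 -0.0691, Psrc1 0.0286, Nts -0.26, Slc5a7 -0.53, Ryr3 -0.12, Rgs9 -0.41, Tac1 -0.12, Cartpt -0.0173, Trib3 -0.0207, Pdyn -0.55, Gpr52 -0.30, Penk -0.94, Gpr149 -1.11, Isl1 -3.46, Onecut2 -0.59 and Clic6 -1.34. With the covariate they were Adora1 -0.22, Adora2a -0.21, Adora2b 0.0124, Drd2 -0.55, Chat -0.14, Fos -0.0711, Arc -0.0603, Egr1 -0.0416, Penk -0.0425, Lhx8 -0.35, Isl1 -0.83 and Clic6 -0.27. With limma on log2 FPKM, Ryr3 was -0.13 with a pseudocount of 1, with or without a filter, and -0.0261 with 0.1, and with the replicate block Adora1 was -0.0016. With each library left out, log2 fold changes ranged between -0.116 and 0.118 for Adora1, between -0.219 and 0.137 for Adora2b and between -0.0881 and 0.315 for Fos. The difference in mitochondrial share, arecoline minus caffeine, ranged from -0.15 to 0.21 percentage points, and that in total counts from -5.004 to -1.26 M. With 4 libraries a group, low counts limit genes under 1 CPM.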
